A study of Saccharomyces cerevisiae with 12 samples.

Results

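The 10 genes followed here supply pyrimidine nucleotides in budding yeast (*S. cerevisiae*), and their transcripts were measured across 4 groups of RNA-seq libraries. They were *URA1*, *URA2*, *URA3*, *URA4*, *URA5*, *URA6* and *URA10*, which encode enzymes of UMP synthesis and the kinase that follows, *PPR1*, which encodes a transcription activator of the pathway, and the permease genes *FUI1* and *FUR4*. They are 10 of the 7108 genes with an identifier in the deposited count table, and all 10 were among the 6372 that passed the filter on low counts. The set was chosen by gene name after changes of *URA1*, *URA3* and *FUI1* against WT had been seen in these same libraries. Every value of the 10 genes against WT is therefore given as a description without a p-value, and counts of members past the call threshold against WT describe the set without supporting it. Tests are given for differences between the strains that lack *ULP2* and for genes outside the set. The tests between strains use libraries that entered the choice of members. The further gene lists were also chosen with earlier results of these data known. The p-values of both are therefore not independent of the choice.

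The study asked how transcription in cells without Ulp2, a protease that removes SUMO (a small protein modifier) from its targets, changes during long culture. WT was strain MHY1379, in which the chromosomal *ULP2* is deleted and the gene is supplied on the plasmid YCplac33-*ULP2*, so the deletion was shared by all 4 groups. Nascent *ulp2Δ* cells had lost that plasmid after selection on FOA, a compound that kills cells with active Ura3, and had undergone little passaging. In the study's scheme, cells then received a plasmid again, either YCplac33 without *ULP2* or YCplac33-*ULP2*, and both are marked with *URA3*. Line 6 and line 9 were each a single *ulp2Δ* line passaged for 500 generations. The evolved lines carried changes in Uba2, a subunit of the SUMO-activating enzyme, but which line had which Uba2 genotype is not in the labels. RNA came from cells growing exponentially in YPD, a rich medium, and there were 3 libraries per group. Nothing in the labels says whether libraries of a group came from separate cultures, so p-values measure only the spread between these libraries, which may be technical.

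Yeast makes UMP from glutamine, bicarbonate and aspartate. Ura2, a single large protein that UTP inhibits, carries out the opening steps, Ura4 closes the ring to dihydroorotate, and Ura1 oxidises it to orotate. Ura5 and Ura10 are alternative enzymes that attach the ribose phosphate, Ura3 removes carbon dioxide to give UMP, and Ura6 phosphorylates UMP. Ppr1 is a zinc-cluster activator that binds DNA and responds to pathway intermediates when pyrimidines are scarce. Fui1 imports uridine and Fur4 imports uracil.

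Ppr1 is known to recognise a pair of CGG triplets facing each other across 6 bases, so the sequence before each start codon was searched for CGGNNNNNNCCG. These letters read the same on both strands, so a single search covers both. The sites found are shown because they mark which members carry the known arrangement. Each is written 5′ to 3′ on the strand of its gene, from the R64 genome (the sacCer3 assembly), with the 12 motif bases in capitals.
*URA1*, chrXI:24994-25023 (+), motif at -212 to -201 from the start codon: tttcttcacCGGGCTTTGCCGaaggttatt
*URA1*, chrXI:25025-25054 (+), motif at -181 to -170: cacgatcttCGGCATTCGCCGaaaattttt
*URA3*, chrV:116006-116035 (+), motif at -152 to -141: tttttgattCGGTAATCTCCGagcagaagg
*URA4*, chrXII:963646-963675 (+), motif at -130 to -119: ttcatcattCGGAGAATTCCGatgaatcgg
*FUI1*, chrII:140591-140620 (-), motif at -351 to -340: gttgatgctCGGGATTTGCCGgtttcgtcc
In windows from 250 bases before to 50 bases after the start codon, 3 of the 10 members (*URA1*, *URA3* and *URA4*) held the letters, against 75 of 6007 such windows over all genes (1.25%). With 500 bases before the start codon, *FUI1* was added, and 174 of 6006 windows held them (2.9%). The longer form TTCGGNNNNNNCCGAA, which contains the shorter one, occurred in 1 of 6007 of the 250-base windows (0.0166%), that of *URA1*, at the second site shown. With 500 bases it occurred in 2 of 6006 (0.0333%). A match describes these letters only, and their absence before *URA2*, *URA5*, *URA6*, *URA10*, *PPR1* and *FUR4* says nothing about binding there.

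Libraries held between 20467216 and 30719553 counts on genes with an identifier. The deleted gene *ULP2* had 8519 to 10694 counts in the WT libraries and 3 to 20 in the other 9, the direction the labels give. Levels below are CPM, counts brought to a common library total and scaled by the trimmed mean of M-values (TMM), given as mean ± SD over n = 3 libraries, and differences are log2 fold changes with their standard error (SE). Calls required an adjusted p (Benjamini-Hochberg) under 0.05 in edgeR's quasi-likelihood test together with a change of at least 2-fold. Scaling by library totals in place of TMM moved the median log2 change of all genes by 0.15 in nascent cells against WT, by -0.10 in line 6 against WT, by -0.25 in line 6 against nascent and by -0.18 in line 9 against nascent. In bulk RNA, a change in the number of cells that express a gene and a change in RNA per cell cannot be told apart.

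Against WT, the 10 genes did not move together. *URA1*, *URA4* and *FUI1* were at least 2-fold higher in all 3 strains lacking *ULP2*, *URA2* was at the 2-fold mark in nascent cells and well above it in both evolved lines, and *URA3* was over 16-fold lower in each strain. *URA5*, *URA6*, *URA10*, *PPR1* and *FUR4* stayed within 2-fold of WT in every strain, except that with library totals *PPR1* passed 2-fold in nascent cells (1.02) and *URA5* reached it in line 6 (-1.0004). The *URA3* level differed from WT wherever *ULP2* was missing. For the other members, the loss of *ULP2* and the *URA3* level therefore cannot be told apart against WT.

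In nascent cells 4 of the 10 members were called against WT (*URA1*, *URA4* and *FUI1* higher, *URA3* lower), while 9.15% of all genes tested were called. Both evolved lines had 5 called members, the same ones with *URA2* added, against 15.1% of all genes in line 6 and 6.69% in line 9. Since the set was chosen on this contrast, nothing is read from these counts. The median log2 change of the 10 genes was 0.60 for nascent cells, 0.17 for line 6 and 0.20 for line 9, against -0.03, -0.01 and -0.01 over all genes tested.

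**Figure D1:**
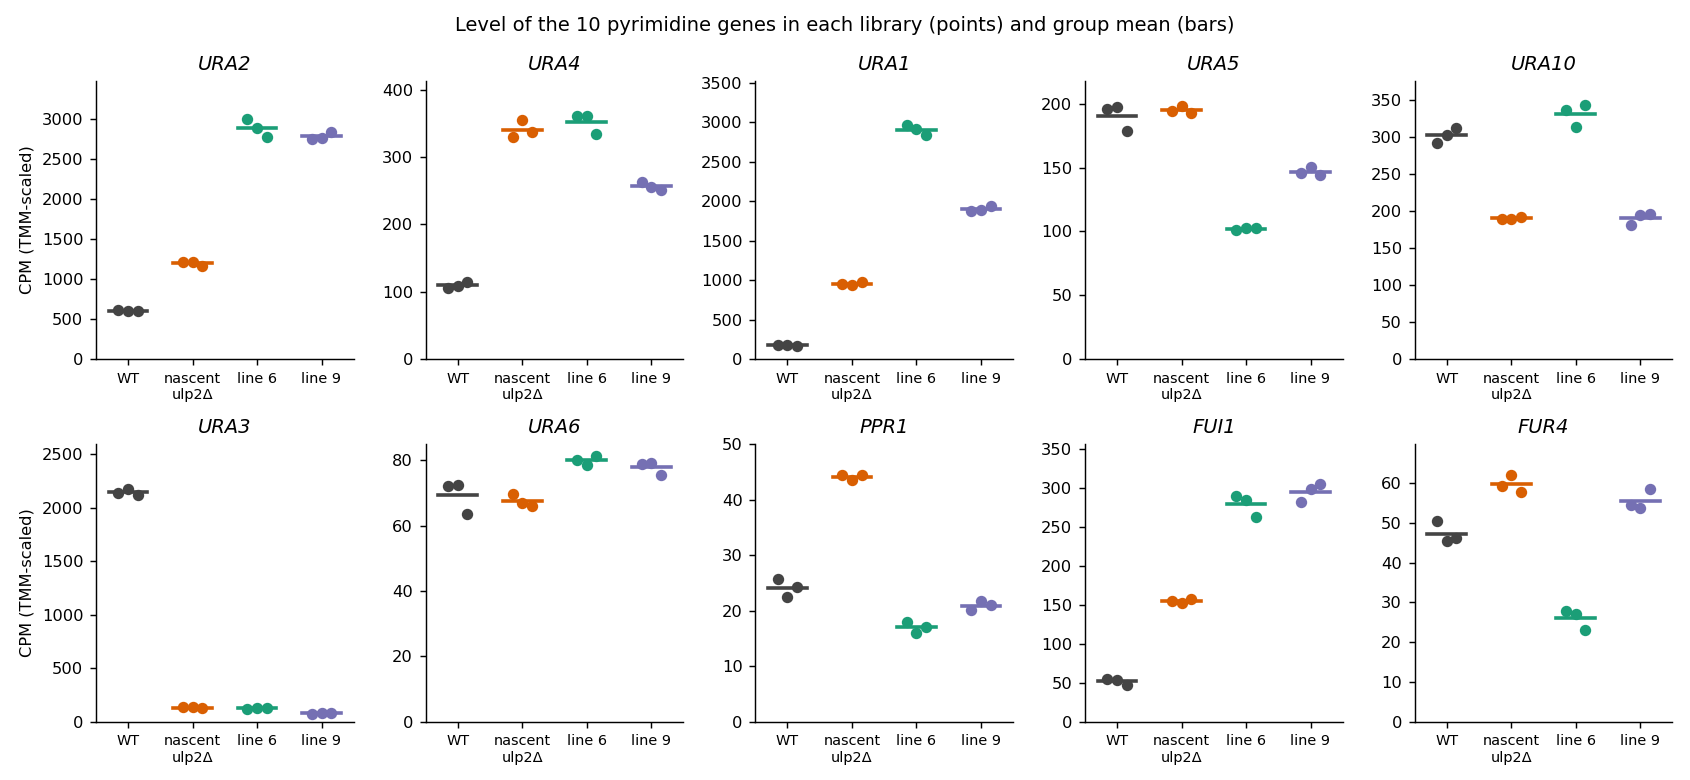
TMM-scaled CPM (vertical axis, linear from 0) of each of the 10 genes in pathway order, by group on the horizontal axis; points are the 3 libraries of a group and horizontal bars their mean. *URA1* steps up from about 174 in WT to 2904 in line 6, *URA3* is at 2145 in WT and below 140 in all other libraries, and *FUR4* and *URA5* are lowest in line 6.

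The opening enzyme gene *URA2* (YJL130C, chromosome X, 165723 to 172367) had 610, 601 and 597 CPM in the WT libraries. Nascent libraries had 1212, 1212 and 1165, line 6 libraries 3000.0, 2897 and 2783, and line 9 libraries 2759, 2770 and 2843. The groups formed 3 steps, with both evolved lines on the top step and overlapping each other. Against WT the log2 change was 0.99 (SE 0.04) for nascent cells, 2.26 for line 6 and 2.21 for line 9. The nascent value lies so close to the 2-fold mark that other scalings and leaving out any nascent library placed it on the other side, for example 1.01 with DESeq2 and 1.14 with library totals. Line 6 was 2.42-fold above nascent cells (log2 1.27, SE 0.04, adjusted p = 6.64e-14 in edgeR's quasi-likelihood test) and line 9 was 2.33-fold above them (log2 1.22, SE 0.04, adjusted p = 2.14e-13). The lines differed by 0.05 (SE 0.04, adjusted p = 0.231 by edgeR), a difference that took the other sign with library totals (-0.02).

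*URA4* (YLR420W, chromosome XII, 963785 to 964879), the dihydroorotase gene, had 105, 109 and 114 CPM in WT. It had 330.1, 356 and 337 CPM in nascent libraries, 360.5, 362 and 335 in line 6, and 263, 255 and 252 in line 9. All 9 libraries without *ULP2* were above WT, and nascent cells and line 6 overlapped. The log2 change against WT was 1.64 for nascent cells, 1.69 for line 6 and 1.23 for line 9, each with an SE of 0.04. Line 9 fell 1.33-fold below nascent cells (log2 -0.41, SE 0.04, adjusted p = 2.96e-07 in edgeR's quasi-likelihood test) and was also below line 6 (line 6 minus line 9, 0.46, adjusted p = 1.91e-07). Between line 6 and nascent cells the difference was 0.05 (SE 0.04, adjusted p = 0.308 by edgeR), and it turned to -0.20 (adjusted p = 0.000662) with library totals.

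Most tested genes of chromosome XII shifted together between these strains, which touches *URA4* and *PPR1*, the members on it. The study cites an early aneuploidy (altered chromosome number) of several chromosomes after Ulp2 loss, with euploidy restored in long culture. The chromosomes are not named there, and chromosome number was not tested here. The other tested genes to the right of the rDNA repeats, where *URA4* lies, had a median log2 change of 0.69 in nascent cells against WT (286 genes, 93% above 0). For the same genes the median was -0.71 in line 6 against nascent and -0.72 in line 9 against nascent. Measured from those medians, *URA4* was 0.95 higher in nascent cells than in WT, and 0.76 and 0.31 higher in line 6 and line 9 than in nascent cells. In the evolved lines against WT the region's median was -0.06 and -0.04. The part of the chromosome in the *URA4* values was not tested.

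*URA1* (YKL216W, chromosome XI, 25215 to 26159) encodes dihydroorotate dehydrogenase and had the widest upward range of the set. Its WT libraries had 174, 177 and 171 CPM, and its nascent libraries 945, 939 and 979. Line 6 libraries had 2962, 2910 and 2840 CPM, and line 9 libraries 1880, 1884 and 1936. The order WT, nascent, line 9, line 6 held without overlap between any neighbours. Against WT the gene was higher by 5.48-fold in nascent cells (log2 2.46), by 16.7-fold in line 6 (4.06) and by 10.9-fold in line 9 (3.45), each log2 value with an SE of 0.04. Among the 6372 genes tested these changes ranked 24th, 5th and 5th from the top.

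Between the strains, *URA1* rose 3.04-fold from nascent cells to line 6 (log2 1.61, SE 0.03, adjusted p = 2.28e-15 in edgeR's quasi-likelihood test). It was 1.99-fold above nascent cells in line 9 (log2 0.99, SE 0.03, adjusted p = 7.46e-13 by edgeR), which misses the 2-fold mark, and leaving out line 9 replicate 2 brought it to 1.00. Line 6 was 1.53-fold above line 9 (log2 0.61, SE 0.03, adjusted p = 4.70e-10 by edgeR). Of the genes beside it, *JEN1*, a lactate permease gene 1130 bases to the left, had a log2 change of -0.39 for nascent cells, 0.68 for line 6 and 0.47 for line 9 against WT, and *OXP1*, 667 bases to the right, had -0.05, 0.32 and 0.28.

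The alternative enzymes of orotate use went separate ways. *URA5* (YML106W, chromosome XIII, 56773 to 57453), known as the major form, had 196, 197 and 179 CPM in WT and 194, 198 and 193 in nascent cells, so these groups overlapped. It had 101.3, 102.6 and 102.9 CPM in line 6 and 146, 151 and 144 in line 9, both below every WT and nascent library. Line 6 was 1.91-fold below nascent cells (log2 -0.93, SE 0.04, adjusted p = 6.32e-12 in edgeR's quasi-likelihood test), and with library totals the value passed 2-fold (-1.18). Line 9 was 1.33-fold below nascent cells (log2 -0.41, SE 0.04, adjusted p = 1.18e-07 by edgeR). Line 6 was also below line 9 (log2 -0.52, adjusted p = 2.07e-08). Against WT the log2 change was 0.03 for nascent cells, -0.90 for line 6 (-1.0004 with library totals) and -0.38 for line 9. The 462 other tested genes of chromosome XIII had a median of -0.21 in line 6 and -0.23 in line 9 against WT. Against nascent cells their median was -0.28 in both lines. Beside *URA5*, *PML39* had -0.42, -0.56 and -0.44 in nascent cells, line 6 and line 9 against WT. *SEC65*, on its other side, had -0.43, -0.53 and -0.57. The part of the chromosome in the *URA5* and *URA10* values was not tested.

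*URA10* (YMR271C, chromosome XIII, 806865 to 807548), known as the minor form, had 291, 303 and 312 CPM in WT and 336, 314 and 343 in line 6. Its WT libraries were all above those of *URA5* in CPM, so the names major and minor do not describe these transcript levels. Nascent libraries had 189.8, 189.6 and 192 CPM and line 9 libraries 181, 195.1 and 195.5. WT and line 6 thus made an upper pair, and nascent cells and line 9 a lower pair whose libraries overlapped. Line 6 was 1.74-fold above nascent cells (log2 0.80, SE 0.04, adjusted p = 7.69e-11 in edgeR's quasi-likelihood test) and 1.74-fold above line 9 (0.80, SE 0.04, adjusted p = 2.83e-10). Line 9 and nascent cells differed by 0.00 (SE 0.04, adjusted p = 0.979 by edgeR), with a sign that changed under most other settings and a value of -0.18 (adjusted p = 0.00135) with library totals.

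The ratio of the paralogs within a library does not depend on scaling. *URA10* to *URA5*, in counts per kb of coding sequence, was 1.58 ± 0.14 in WT, 0.972 ± 0.021 for nascent cells, 3.22 ± 0.15 for line 6 and 1.29 ± 0.06 for line 9 (SD, n = 3 each). Line 6 stood above all other libraries, and no groups overlapped. The ratios were chosen after the levels had been seen, and with 3 libraries against 3 the exact permutation test cannot go below a two-sided p of 0.1, which each of the 18 comparisons of ratios reached (adjusted 0.1). The coding sequences of the pair are 68.3% identical with a longest shared run of 11 bases, shorter than a read, though how the counting treated reads that fit both genes is not given in the sources used here.

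*URA3* (YEL021W, chromosome V, 116167 to 116970), the gene for orotidine phosphate decarboxylase, had 2140, 2178 and 2118 CPM in WT, where it was the highest of the 10 genes per kb (2668 ± 38.1 CPM per kb). It had 138, 135 and 126 CPM in nascent libraries, 118, 128 and 127 in line 6, and 69.2, 84.8 and 81.8 in line 9. Every library without *ULP2* was far below every WT library, yet each still held 1581 to 3847 raw counts on the gene. The level was 6.2% of WT for nascent cells (log2 -4.01, SE 0.07), 5.8% for line 6 (-4.11) and 3.67% for line 9 (-4.77), which ranked 6th, 6th and 9th from the bottom of all genes tested.

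The plasmid YCplac33 carries *URA3* as its marker, and counts do not tell a plasmid copy from the chromosomal gene. Cells that survived FOA lacked active Ura3, so the chromosomal copy gave none at that step. The counts left without *ULP2* thus do not show a working chromosomal gene, and its allele is not in the labels. Cells without *ULP2* may have held YCplac33, which also carries *URA3*, since the study's scheme returned a plasmid after FOA. The labels do not give the plasmid that each culture held when RNA was taken, and *ULP2* was low in the same libraries. So the number of plasmid copies of *URA3* and the loss of *ULP2* cannot be told apart in these values. This limit extends to the other members in every comparison with WT, since *URA3* and *ULP2* differed together there. The chromosomal neighbours of *URA3* differed much less from WT: *GEA2*, to its left, had log2 changes of -0.04, -0.58 and -0.16 in nascent cells, line 6 and line 9, and *TIM9*, to its right, had -0.66, -0.28 and -0.12. Among the strains, *URA3* in line 9 was 1.69-fold below nascent cells (log2 -0.76, SE 0.06, adjusted p = 2.49e-08 in edgeR's quasi-likelihood test) and 1.58-fold below line 6 (line 6 minus line 9, 0.66, SE 0.06, adjusted p = 2.89e-07). Line 6 and nascent libraries overlapped (log2 -0.10, SE 0.06, adjusted p = 0.157 by edgeR). That difference passed the test with library totals (-0.35, adjusted p = 7.2e-05) and without nascent replicate 3 (-0.16, adjusted p = 0.0446).

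*URA6* (YKL024C, chromosome XI, 392526 to 393140), the UMP kinase gene, changed least. It had 63.5 to 72.6 CPM in WT, 66.1 to 69.8 in nascent cells, 78.5 to 81.5 in line 6 and 75.6 to 79.2 in line 9. Both evolved lines lay above all WT and nascent libraries. Against WT the log2 change was -0.04 for nascent cells (0.11 with library totals), 0.21 for line 6 and 0.17 for line 9. Line 6 was 1.18-fold above nascent cells (log2 0.24, SE 0.05, adjusted p = 0.000551 in edgeR's quasi-likelihood test), which library totals turned to -0.01. Line 9 was 1.15-fold above them (log2 0.20, SE 0.05, adjusted p = 0.00229 by edgeR), which library totals brought to 0.03 (adjusted p = 0.662). Line 6 and line 9 overlapped (log2 0.04, SE 0.05, adjusted p = 0.551 by edgeR), with the opposite sign under library totals (-0.03).

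**Figure D2:**
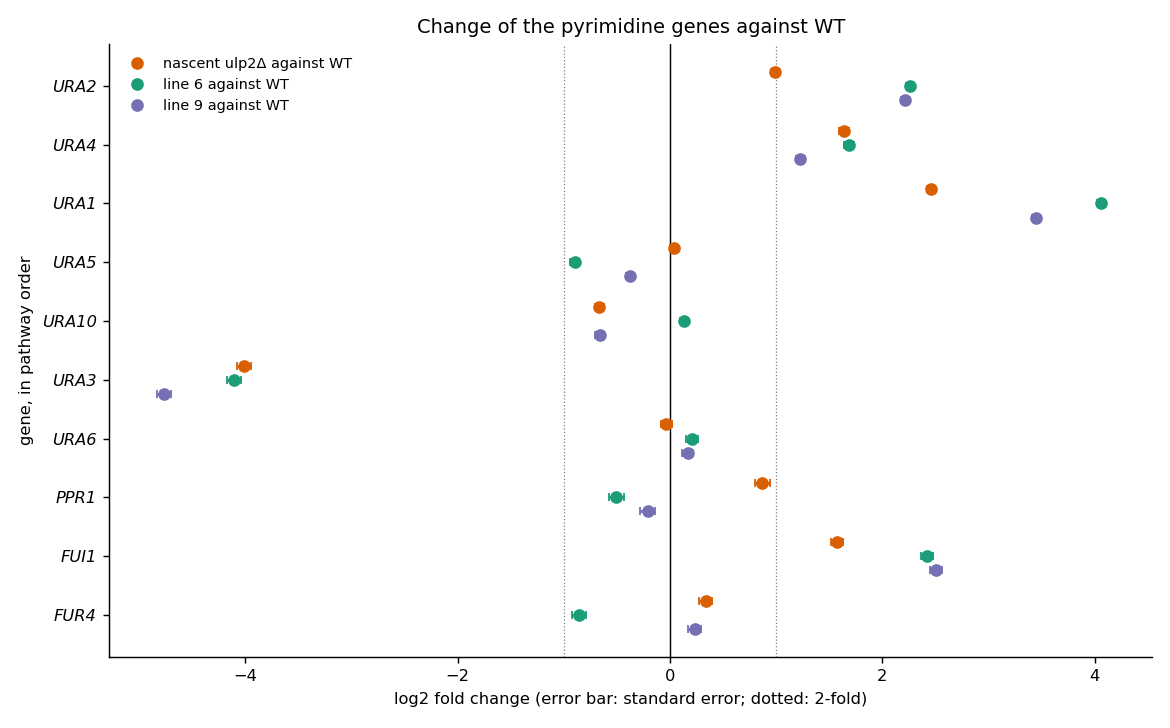
Log2 fold change against WT (horizontal axis) of the 10 genes, listed in pathway order on the vertical axis, for nascent *ulp2Δ*, line 6 and line 9; error bars are standard errors from edgeR and dotted lines mark 2-fold. *URA1* reaches 4.06 in line 6 and *URA3* lies at -4.01 to -4.77, while *URA5* and *FUR4* are near or above 0 in nascent cells and at -0.90 and -0.86 in line 6.

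*PPR1* (YLR014C, chromosome XII, 172268 to 174982), the activator gene, was the lowest of the 10 per kb (8.89 ± 0.61 CPM per kb in WT). It had 25.7, 22.4 and 24.3 CPM in WT, 44.4, 43.6 and 44.4 in nascent cells, 17.9, 16.1 and 17.0 in line 6, and 20.1, 21.7 and 20.9 in line 9. Nascent cells were above every other library, and both evolved lines were below WT. Line 6 fell 2.6-fold below nascent cells (log2 -1.38, SE 0.07, adjusted p = 7.81e-11 in edgeR's quasi-likelihood test) and line 9 fell 2.11-fold (log2 -1.08, SE 0.07, adjusted p = 1.59e-09). Line 6 was below line 9 (log2 -0.30, SE 0.07, adjusted p = 0.00233 by edgeR). Against WT the log2 change was 0.87 (SE 0.07) in nascent cells, which library totals moved past 2-fold (1.02), -0.51 in line 6 and -0.21 in line 9.

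Most of the 207 other tested genes left of the rDNA repeats, where *PPR1* lies, moved the same way, with 93.2% above 0 in nascent cells against WT and 9.18% and 6.76% above 0 in line 6 and line 9 against nascent cells. Their median log2 change was 0.69 in nascent cells against WT, -0.85 in line 6 against nascent and -0.79 in line 9 against nascent. Measured from those medians, *PPR1* stood at 0.18 in nascent cells against WT, and at -0.53 and -0.29 in line 6 and line 9 against nascent cells. The part of the chromosome in the *PPR1* values was not tested. The levels of *PPR1* and of *URA1*, a gene that Ppr1 is known to activate, ran in different orders: *PPR1* was lowest and *URA1* highest in line 6. Ppr1 protein and its activity were not measured, and its action on *URA1* was not tested.

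*FUI1* (YBL042C, chromosome II, 138341 to 140260), the uridine permease gene, had 55.1, 54.1 and 47.2 CPM in WT and 155, 152 and 157 in nascent cells. It had 289, 285 and 262 CPM in line 6 and 282, 298 and 305 in line 9. As with *URA2*, the evolved lines shared the top step and overlapped. Line 6 was 1.8-fold above nascent cells (log2 0.85, SE 0.05, adjusted p = 5.14e-10 in edgeR's quasi-likelihood test) and line 9 was 1.91-fold above them (log2 0.93, SE 0.05, adjusted p = 2.25e-10). The lines differed by -0.08 (SE 0.05, adjusted p = 0.185 by edgeR), and by -0.15 (adjusted p = 0.00842) with library totals. Against WT the log2 change was 1.57 for nascent cells, 2.42 for line 6 and 2.50 for line 9, each with an SE of 0.06.

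*FUR4* (YBR021W, chromosome II, 281443 to 283344), the uracil permease gene, went the other way in line 6. It had 50.5, 45.4 and 46.1 CPM in WT, 59.2, 62.1 and 57.8 in nascent cells, 27.8, 27.2 and 23.1 in line 6, and 54.5, 53.7 and 58.5 in line 9. Line 6 was below all 9 other libraries, and line 9 overlapped nascent cells. Line 6 fell 2.29-fold below nascent cells (log2 -1.20, SE 0.07, adjusted p = 1.44e-10 in edgeR's quasi-likelihood test) and 2.13-fold below line 9 (log2 -1.09, SE 0.07, adjusted p = 1.39e-09). Line 9 differed from nascent cells by -0.10 (SE 0.06, adjusted p = 0.142 by edgeR), a difference that passed the test with library totals (-0.28, adjusted p = 0.000539) and in a fit of these libraries alone (-0.11, adjusted p = 0.0438). Against WT the log2 change was 0.34 for nascent cells, -0.86 for line 6 and 0.23 for line 9.

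Within a library, *FUI1* to *FUR4* in counts per kb was 1.09 ± 0.08 in WT, 2.57 ± 0.14 for nascent cells, 10.6 ± 0.53 for line 6 and 5.26 ± 0.20 for line 9 (SD, n = 3 each). The transporters were thus near equal per kb in WT, and line 6 had the widest gap between them. The coding sequences are 57.7% identical, and their longest shared run is 12 bases. *URA1* to *URA4*, a ratio of neighbouring steps, was 1.84 ± 0.10 in WT, 3.25 ± 0.17 for nascent cells, 9.56 ± 0.26 for line 6 and 8.59 ± 0.31 for line 9, again without overlap between groups.

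**Figure D3:**
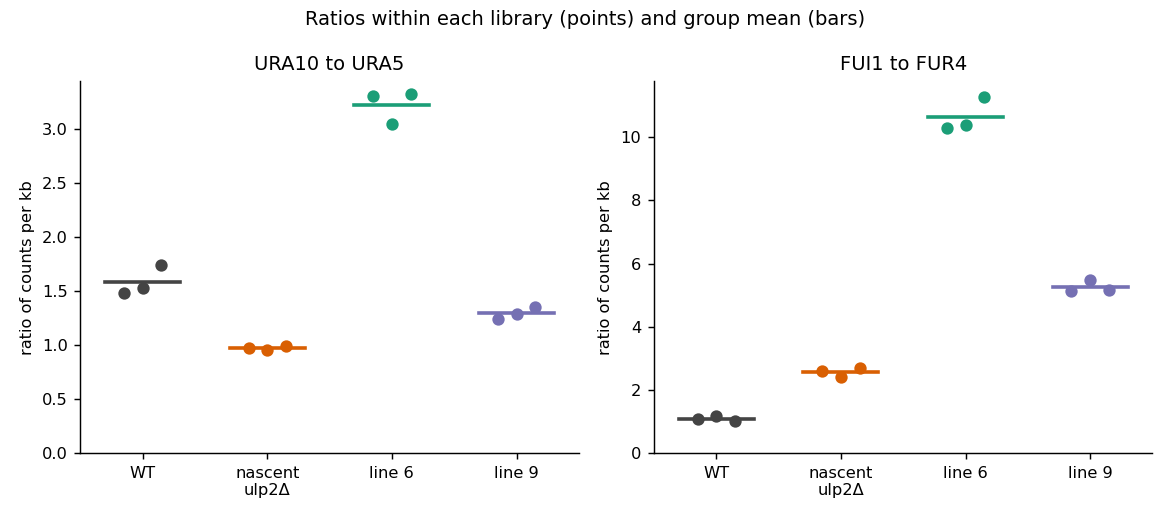
Ratio of counts per kb within each library for *URA10* to *URA5* and for *FUI1* to *FUR4* (vertical axes, linear from 0), by group; points are libraries and bars are means. Line 6 is the highest group in both panels, with means of 3.22 and 10.6.

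Set side by side, the direct contrasts between strains gave 4 called members of 10 in line 6 against nascent cells (*URA1* and *URA2* higher, *PPR1* and *FUR4* lower), where 17.8% of all genes tested were called. In line 9 against nascent cells 2 were called (*URA2* higher, *PPR1* lower), against 14.4% of all genes. In line 6 against line 9 only *FUR4* was called, lower in line 6, against 4.43% of all genes. By the adjusted p alone, without the 2-fold condition, 8 of 10 members passed in line 6 against nascent cells (79% of all genes), 8 in line 9 against nascent cells (76.2%) and 7 in line 6 against line 9 (57.6%), shares near those of all genes. The comparisons of line 6 and line 9 with nascent cells share the nascent libraries.

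**Figure D4:**
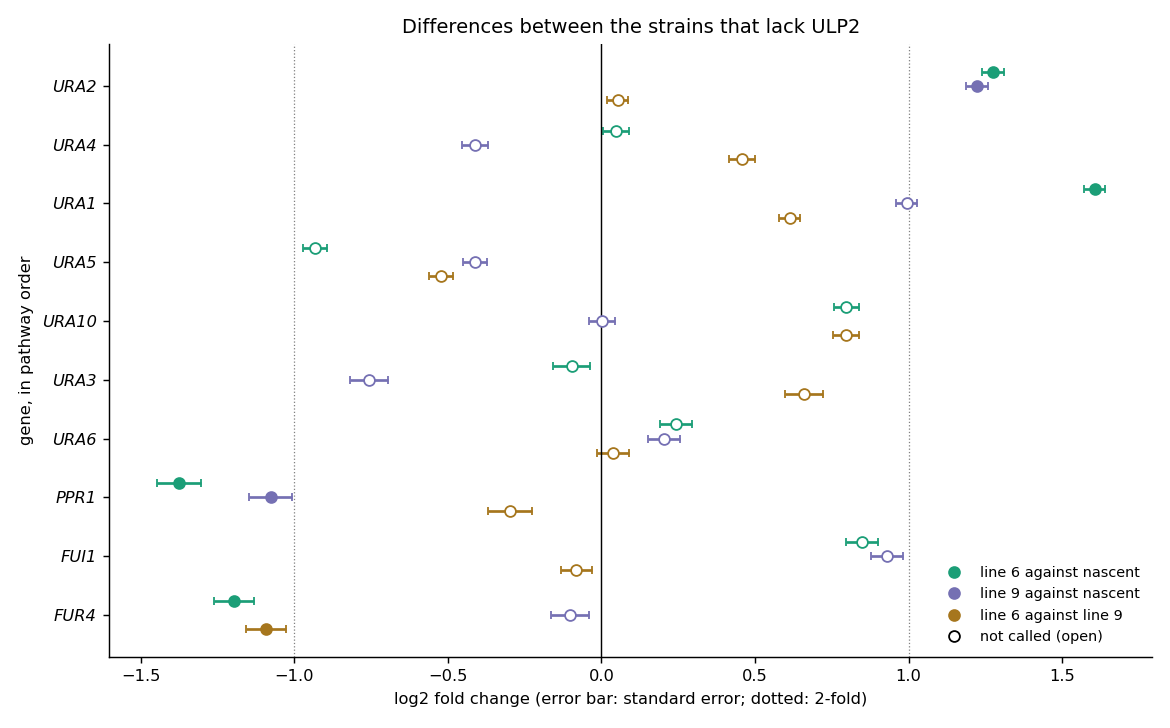
Log2 fold change (horizontal axis) of the 10 genes in line 6 against nascent cells, line 9 against nascent cells and line 6 against line 9; error bars are standard errors, dotted lines mark 2-fold, filled points are called and open points are not. *URA1* lies at 1.61 and 0.99 in line 6 and line 9 against nascent cells, and *FUR4* at -1.20 and -0.10.

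The 10 genes together took 0.369% to 0.372% of a WT library's counts and 0.364% to 0.372% of a nascent library's, so their sum was alike while its makeup differed. These are shares of library totals without TMM scaling, and *URA3* is also the marker of the plasmid that WT carried. Without *URA3*, the other 9 took 0.156% to 0.157% in WT and 0.350% to 0.357% in nascent cells. In line 6 all 10 took 0.648% to 0.672%, and in line 9 they took 0.564% to 0.570%. Per kb, *URA3* led the WT order (2668), followed by *URA10* (442) and *URA5* (280.0), with *URA1* at 184 and *URA6* at 113. *URA4* (96.2 to 104 over libraries) overlapped *URA6* (103 to 118), and both were above *URA2* (89.8 to 91.8). Below these, *FUI1* (27.2 ± 2.26) and *FUR4* (24.9 ± 1.44) overlapped as well. In line 6 the order was led by *URA1* at 3073 ± 65.1 CPM per kb.

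The genes whose pattern over the 12 libraries was most like that of *URA1* were sought by the root mean square (RMS) difference in log2 CPM after centring each gene on its own mean. The 5 nearest outside the set were YNL018C (RMS 0.44), YML057C-A (0.56), YPL136W (0.58), YNL034W (0.62) and YAL016C-A (0.64). Among the members, *FUI1* stood 4th in the whole order (0.58), *URA2* 7th (0.68) and *URA4* 45th (0.99), so 3 members were among the nearest 50 of the tested genes. The next member, *URA6*, was at place 1826, and *URA3* was at place 6361. All points share the same 12 libraries, WT included, and the order is a description only. Changes of *URA1* and *FUI1* against WT led to the choice of the set, so their nearness here does not support it.

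The nearest annotated genes on both sides of the 10 members, 20 in all, were also measured. In nascent cells against WT they ranged from -0.72 to 1.08 in log2 change with a median of 0.03. *RPN13*, 210 bases from *URA4*, and *GAT3*, beside *PPR1*, passed 2-fold there, and both lie on chromosome XII. In line 6 against nascent cells the median was -0.12, and the neighbours past 2-fold were *JEN1* (1.08), beside *URA1*, and *GAT3* (-2.46), beside *PPR1*, each in the direction of its member. *GAT3* was also past 2-fold in line 9 against nascent cells (-2.75), from levels of 1.87 CPM in nascent cells and 0.278 CPM in line 9, and the median was 0.01. In line 6 against line 9 none passed 2-fold. No gene with a position in the annotation overlaps a member, but genes of the count table without a position could not be checked.

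A further 21 genes of pyrimidine salvage, interconversion and transport passed the filter, and the adjusted p alone was met by 19 of them in nascent cells against WT, by 18 in line 6 and by 17 in line 9. Of all genes tested 73.3%, 74% and 66.5% met it. In nascent cells 3 were called higher than WT and 1 lower. Line 6 had 1 higher and 4 lower, whereas 3 were lower and 1 was higher in line 9. Over all 6372 genes tested, 413 were called higher and 170 lower in nascent cells (9.15% in all), 287 and 672 in line 6 (15.1%), and 111 and 315 in line 9 (6.69%), so lower calls were also the more frequent over all genes in both evolved lines. The median log2 change of the 21 was -0.05, -0.20 and -0.11. Against nascent cells 3 were lower in line 6, and 1 was higher and 3 lower in line 9, with medians of -0.50 and -0.26, where 17.8% and 14.4% of all genes were called. In line 6 against line 9, 2 were lower, with a median of -0.19 and 4.43% of all genes called. The count in line 6 against nascent cells rose to 6 with library totals.

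The gene with the widest change was *URA7*, known as the gene of the major CTP synthase, the enzyme that makes CTP from UTP. It had 45.2 ± 2.32 CPM in WT, 28.1 ± 2.75 for nascent cells, 6.56 ± 0.79 for line 6 and 13.4 ± 0.61 for line 9 (SD, n = 3). Against WT it fell 6.9-fold in line 6 (log2 -2.79, SE 0.10, adjusted p = 1.59e-12 in edgeR's quasi-likelihood test) and 3.37-fold in line 9 (-1.75, SE 0.10, adjusted p = 5.77e-10). The difference between line 6 and line 9 was -1.03 (SE 0.10, adjusted p = 4.17e-07 by edgeR), and it moved inside 2-fold without line 6 replicate 1 (-0.99) or 2 (-0.98). Its paralog *URA8*, named here after its values were seen, had 407 ± 12.6 CPM in WT and 781 ± 19.0 in line 6 (log2 0.94, SE 0.03, adjusted p = 1.41e-12 by edgeR), and it also rose in line 9 (0.61, adjusted p = 7.12e-10). In every group *URA8* was far above *URA7* in CPM, so the name major does not describe the transcript levels.

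*FUR1*, which encodes the uracil phosphoribosyltransferase that makes UMP directly from uracil, fell 2.81-fold in line 6 (log2 -1.49, SE 0.08, adjusted p = 8.2e-11 by edgeR) and 2.06-fold in line 9 against WT (-1.04, SE 0.07, adjusted p = 1.07e-08). Without WT replicate 3 the line 9 value was just inside 2-fold (-0.9974). Of the genes that lead to thymidylate, *CDC21*, thymidylate synthase, had a log2 change of -1.93 in line 6 (adjusted p = 5.95e-11 by edgeR) and was lower there than in line 9 (-1.09, SE 0.10, adjusted p = 1.19e-07). *DCD1*, dCMP deaminase, fell by 1.13 in line 6 and by 1.29 in line 9 on the log2 scale (adjusted p = 2.11e-06 and 8.41e-07 by edgeR).

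Other called genes rose in nascent cells. *DAL4*, an allantoin permease gene of the same family as *FUR4* and *FUI1*, rose by 1.47 there (adjusted p = 7.75e-08 by edgeR) and was lower in line 6 and line 9 than in nascent cells (-1.65 and -2.17). The cytidine deaminase gene *CDD1* rose by 1.35 in nascent cells (adjusted p = 8.21e-11 by edgeR), and was lower in line 6 and line 9 than in nascent cells (-1.15 and -1.20). It too lies on chromosome XII, right of the rDNA repeats, and the part of the chromosome in its values was not tested. *FCY21*, a gene of the cytosine permease family, rose by 1.32 in nascent cells (adjusted p = 3.74e-09 by edgeR). Its relative *FCY22* rose by 1.58 in line 6 and 1.20 in line 9 (adjusted p = 4.54e-07 and 1.33e-05 by edgeR) from a WT level of 2.50 ± 0.14 CPM. *YNK1*, the nucleoside diphosphate kinase gene, was the one called gene outside the rule for naming, and it fell by 1.10 in nascent cells (adjusted p = 3.84e-12 by edgeR) but was 1.25 higher in line 9 than in nascent cells. With library totals the nascent change was -0.95, inside 2-fold. Reads of the paralogs *FCY21* and *FCY22*, and of *URA7* and *URA8*, may have been divided between copies by the counting.

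**Figure D5:**
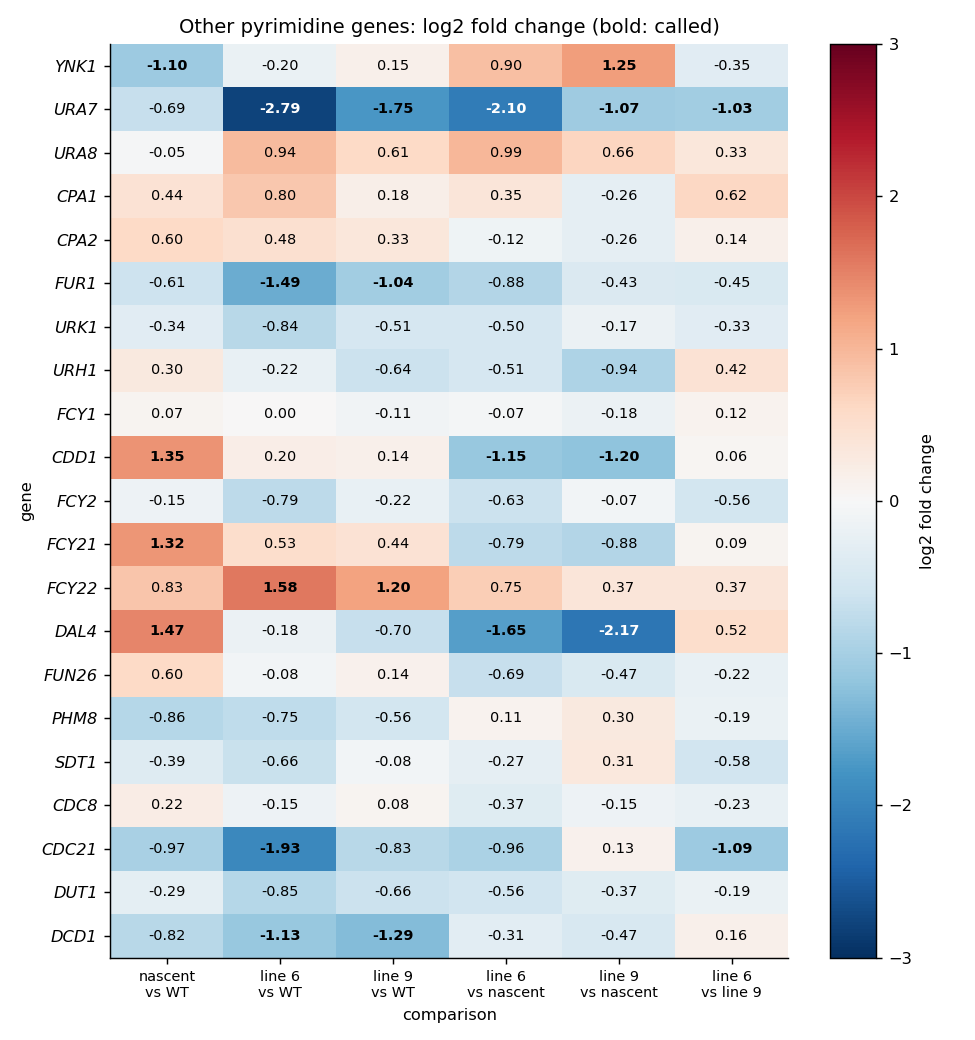
Log2 fold change of the 21 other pyrimidine genes (vertical axis) in the 6 comparisons (horizontal axis), with red for higher and blue for lower and each value printed in its cell; bold values are called. *URA7* runs from -0.69 in nascent cells to -2.79 in line 6 against WT, and *DAL4* from 1.47 to -0.18.

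Of 14 purine synthesis genes measured beside them, 3 were called in any comparison. Against WT nascent cells had 1 called, line 6 had 2 and line 9 had 1, where 9.15%, 15.1% and 6.69% of all genes were called. *GUA1*, GMP synthase, fell by 2.18 in line 6 and by 1.17 in line 9 against WT on the log2 scale (adjusted p = 1.67e-15 and 2.42e-12 by edgeR). *IMD3*, an IMP dehydrogenase gene, fell by 1.42 in line 6 (adjusted p = 7.99e-15 by edgeR) and had -0.24 in line 9. *IMD2*, its paralog, rose by 1.14 in nascent cells (adjusted p = 1.38e-06 by edgeR). The IMD genes are close copies of each other, so their separate counts are uncertain. No *ADE* gene was called, but 2 were at the edge. *ADE4* had -0.98 in line 6 against nascent cells (adjusted p = 3.25e-12 by edgeR), which passed 2-fold with library totals (-1.23), without the filter (-1.004) and without nascent replicate 1 (-1.02) or 2 (-1.01), and in line 9 against nascent cells it had -0.84 and passed with library totals (-1.02). *ADE12* had -0.98 in nascent cells against WT (adjusted p = 9.5e-11 by edgeR), and -1.003 without WT replicate 2.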

How the data were processed

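RNA-seq libraries of 12 *S. cerevisiae* samples (4 groups, 3 each) were analysed. The authors trimmed reads with Trim Galore 0.5.0, mapped them to sacCer3 with HISAT2 2.1.0 and quantified genes with StringTie 1.3.3b on SGD gene models; they also used DESeq2 1.22.1. The deposited table holds raw whole-number counts. The step from coverage to counts and any use of strand are not given in the sources used here, so overlapping or antisense genes and close paralogs are uncertain. Of 7114 features, 6 unnamed loci (0.0826% to 0.173% of counts) were left out. The R64 annotation gave symbols and positions for 6011 genes.

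Counts were filtered with filterByExpr (minimum 10), TMM-scaled and fitted over all 12 libraries with edgeR 4.0.16 (glmQLFit and glmQLFTest, R 4.3.3), with Benjamini-Hochberg adjustment over 6372 genes. A call needed an adjusted p under 0.05 and a log2 change of at least 1. The method was tested on simulated data. Medians of depth were 23702861 (WT), 22565306 (nascent), 25096324 (line 6) and 29557253 (line 9) counts. TMM factors were 0.988 to 1.01 in WT, 1.10 to 1.11 in nascent cells, 0.92 to 0.94 in line 6 and 0.96 to 0.99 in line 9. All replicate pairs differed by more than sampling noise.

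The members and the 2 further gene lists were chosen with earlier results of these data known. Named were all members, their neighbours, *ULP2*, up to 8 other pyrimidine and 4 purine genes with the largest called changes, and the 5 genes nearest to *URA1*. Alternatives were library totals or median-ratio size factors for TMM, no filter, DESeq2 1.42.0, only the libraries compared, a replicate block, and leaving out each library.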

Additional observations from a re-analysis of the deposited data

Results flagged for a closer look

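Line 6 and line 9 gave different changes from shared WT and nascent libraries for some genes, and the direct test between the lines (edgeR's quasi-likelihood test) bears on each. *FUR4* was lower in line 6 than in line 9 by a log2 difference of -1.09, and it was below WT in line 6 and above WT in line 9. *URA10* differed by 0.80 (line 6 minus line 9), above WT in line 6 and below it in line 9. Outside the set, *URA7* differed by -1.03, *CDC21* by -1.09, *GUA1* by -1.01 (-0.98 without line 6 replicate 1) and *IMD3* by -1.18. *YNK1* differed by -0.35 and lay on opposite sides of WT in the lines.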

How the results depend on the processing

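Leaving out any library moved the 60 member values by at most 0.095 on the log2 scale (*URA3*, line 6 against line 9). No member past the call threshold in the reported fit fell inside it under any setting run. Signs turned with library totals for *URA4* and *URA6* in line 6 against nascent cells (-0.20 and -0.0069), *URA10* in line 9 against nascent cells (-0.18), *URA2* and *URA6* in line 6 against line 9 (-0.0189 and -0.0325), and *URA6* in nascent cells against WT (0.11), and in none of these was the reported difference called. *URA10* in line 9 against nascent cells also had -0.00035 with median-ratio factors, -3.24e-05 with DESeq2, -0.012 without the filter and -0.0012 with only the libraries compared, and without single libraries it lay between -0.0228 and 0.0202. Without single libraries, *URA5* in nascent cells against WT reached -0.0127 (without WT replicate 3) and *URA6* 0.0017 (without nascent replicate 3), and *URA4* in line 6 against nascent cells ranged from -0.0065 (without nascent replicate 1) to 0.0852. The other pyrimidine genes called in line 6 against nascent cells numbered 6 with library totals and 3 as reported, and in line 6 against line 9 they numbered 1 to 2 when single libraries were left out. Replicate numbers did not pair the libraries across all groups: the 18 same-number correlations ran from -0.137 to 0.111. In 6 of the 18 pairs the shared number gave the highest correlation. Between WT and nascent cells it did so for every replicate, with small values (0.093, 0.081 and 0.081). The highest correlations with another number there were -0.043, -0.029 and -0.036. With the replicate block no member's call changed, and *URA1* in line 6 against nascent cells had a log2 change of 1.61 with and without it. Counting depth was lowest for *PPR1*, at 369 to 1246 counts per library. One line stands for each evolved group, so line and evolution cannot be told apart.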
